A study of Mus musculus with 6 samples.

Results

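Glutathione peroxidases, superoxide dismutases and catalase are the enzymes that remove superoxide and peroxides from cells, and their transcripts were followed in mouse macrophages with and without oxidised low-density lipoprotein (oxLDL). The genes were taken by symbol: Gpx1, Gpx3, Gpx4, Cat, Sod1, Sod2 and Sod3, 7 of the 24054 genes in the deposited tables. All 7 had a row, and 6 passed the filter on low counts, Sod3 being the exception. The cells were macrophages that had been grown from the bone marrow of C57BL/6 mice, wild type, over 7 days in medium conditioned by L929 cells, a fibroblast line that secretes the macrophage growth factor CSF1. One group of 3 samples then had oxLDL at 50 µg/ml for 24 hours, and the untreated group of 3 samples was kept for as long without it. No arm with native LDL was analysed here. Each group held the WT numbers 1, 2 and 3, and oxLDL samples were compared with the untreated samples of the same number. The labels do not say whether a number marks an animal, a culture or a day, nor what the word mix in every title means. Where the number was in the fit, p-values reflect the spread left among the 6 samples after differences between numbers are taken out. Where it was not, they reflect spread within each group. Either spread could be technical in part.

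Superoxide, made by NADPH oxidases and by mitochondria, is turned into hydrogen peroxide and oxygen by superoxide dismutases: Sod1 in the cytosol, Sod2 in mitochondria and Sod3 outside the cell. Hydrogen peroxide is then removed by catalase in peroxisomes and by glutathione peroxidases, which spend reduced glutathione, while Gpx4 reduces peroxides of membrane phospholipids and so protects cells from ferroptosis, a death by lipid peroxidation. Macrophages make superoxide to kill microbes and take up oxLDL, a lipoprotein that itself carries lipid peroxides, through scavenger receptors.

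The 3 glutathione peroxidases share a feature that sets them apart from the dismutases and catalase: the active site holds selenocysteine, encoded by a TGA codon that elsewhere ends translation. The coding sequence around that codon is shown because it is the shared catalytic site of 3 genes whose values went different ways. Each line runs 5′ to 3′ over 33 bases of the GENCODE M21 coding sequence (GRCm38, plus strand), with the TGA codon in capitals.
Gpx1: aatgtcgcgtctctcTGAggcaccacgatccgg
Gpx3: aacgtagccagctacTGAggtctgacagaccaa
Gpx4: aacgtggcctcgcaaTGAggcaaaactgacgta
The codon lies at chr9:108339451-108339453 in exon 1 of 2 of Gpx1, as codon 47 of 201. In Gpx3 it lies at chr11:54907256-54907258 in exon 2 of 5, as codon 73 of 226, and in Gpx4 at chr10:80054737-80054739 in exon 3 of 7, as codon 73 of 197. Of the 33 bases, 19 were identical between Gpx1 and Gpx4, 20 between Gpx3 and Gpx4, 16 between Gpx1 and Gpx3, and 14 in all 3.

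Cat and Gpx1 were the members whose transcripts changed past the threshold, in opposite directions, so the 250 bases before their RefSeq transcription starts (GRCm38.p6) are shown on the strand of the gene. Capitals mark CCAAT boxes (CCAAT, or ATTGG where the match is on the opposite strand) and GC boxes (GGGCGG, or its reverse complement).
Cat: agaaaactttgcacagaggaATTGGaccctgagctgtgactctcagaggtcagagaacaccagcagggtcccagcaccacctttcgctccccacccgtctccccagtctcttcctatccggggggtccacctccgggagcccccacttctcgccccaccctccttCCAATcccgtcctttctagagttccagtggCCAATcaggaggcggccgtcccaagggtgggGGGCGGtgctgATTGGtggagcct
Gpx1: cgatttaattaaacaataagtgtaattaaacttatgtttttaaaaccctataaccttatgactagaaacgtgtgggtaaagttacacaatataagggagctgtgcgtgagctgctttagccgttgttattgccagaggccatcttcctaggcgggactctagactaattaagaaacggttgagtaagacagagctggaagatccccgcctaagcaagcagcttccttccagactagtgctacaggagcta
The Cat window is chr2:103485154-103485403 on the minus strand and held 4 CCAAT boxes and 1 GC box. The Gpx1 window, chr9:108338830-108339079 on the plus strand, held 0 of either. GENCODE M21 places the gene start inside both windows, at chr2:103485160 for Cat and chr9:108338903 for Gpx1. Much of the Gpx1 window thus lies within the annotated gene. The principal transcripts start after 243 bases of the Cat window and 224 of the Gpx1 window. Searched on both strands, a CCAAT box was found in 33.8% and a GC box in 32.7% of all 32851 windows of this length. The core of the antioxidant response element, TGACNNNGC, stood in 10.2% of them. Among the 6 members with a RefSeq entry it matched in Sod1 alone, as GCGTGGTCA from base -56. CCAAT and GC boxes also stood in windows of members that did not pass. Gpx3 had 1 CCAAT box and 1 GC box, and Sod1 and Sod2 each had 1 and 4. The windows of Gpx4 held 0 to 3 CCAAT boxes and 0 to 2 GC boxes. These matches describe letters in a window and say nothing of whether a factor binds there.

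Totals ran from 13546572 to 15559310 expected counts per library, and 11400 genes passed the filter. The libraries numbered 3 stood apart. In log2 CPM the untreated one correlated at 0.889 and 0.897 with the others of its group, which correlated with each other at 0.984. Untreated library 3 correlated at 0.964 with oxLDL library 3 and at 0.901 with each of oxLDL libraries 1 and 2. Its values within its own group were thus the lower ones. The values of each tested enzyme gene are therefore given in each pair and also without pair 3. Transcripts were tested with edgeR's quasi-likelihood test with the WT number as a block, and a change counts as past the threshold at a Benjamini-Hochberg adjusted p under 0.05 over all 11400 genes. The words rose and fell refer to this fit. Levels are CPM, read counts scaled to a common library size with TMM factors, and changes are log2 fold changes, oxLDL over untreated, with their standard error (SE).

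Of the 6 tested members, Cat rose, Gpx1 fell and 4 did not pass. Over all tested genes 1.91% rose and 3.98% fell in that fit. The median log2 fold change of the 6 was 0.39, with 4 positive and 2 negative values, beside 0.01 over all genes, of which 51.4% were positive. The 3 oxLDL and 3 untreated libraries did not overlap for Cat and Gpx1, and for 21.1% of all tested genes. Without the block, 0 members and 0 genes passed in edgeR (smallest adjusted p over all genes 0.0667), while 1674 genes had an unadjusted p under 0.05. Because RNA was taken from whole cultures, fewer cells of a kind and less RNA per cell cannot be told apart in any of these values.

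**Figure D1:**
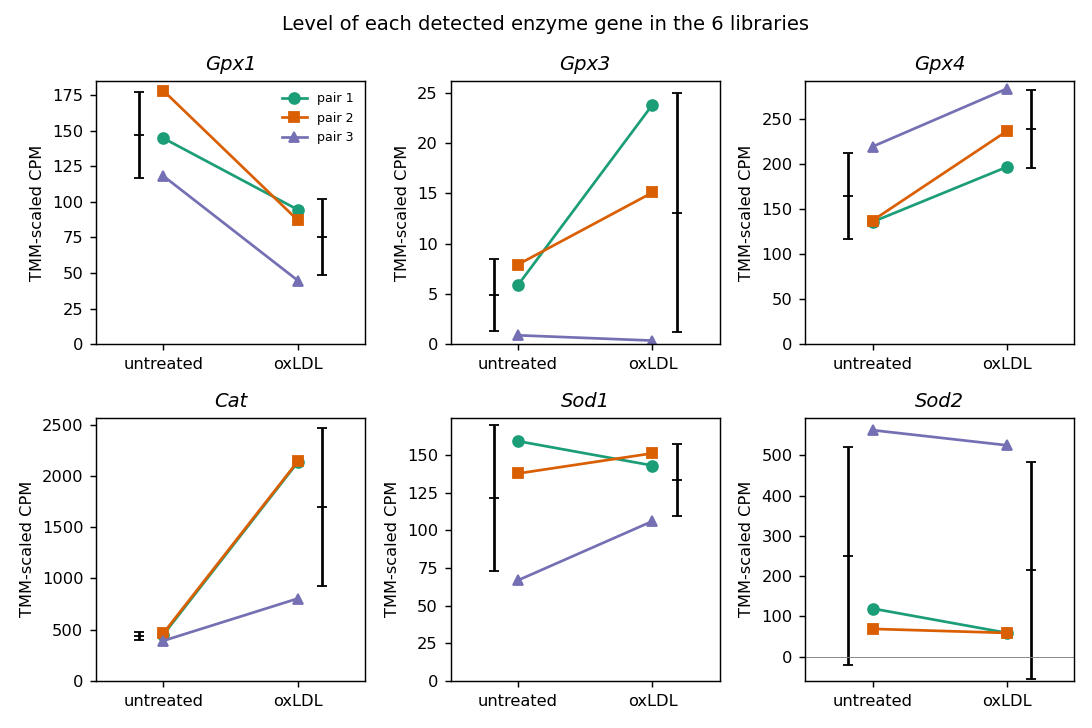
Level of each of the 6 detected genes in TMM-scaled CPM (vertical axis, from 0 except for Sod2, where the SD bar reaches below 0), with lines joining libraries of the same WT number and black bars for mean ± SD (n = 3). All 3 lines slope upward for Cat and Gpx4 and downward for Gpx1 and Sod2, while the libraries numbered 3 lie far above the others for Sod2 and far below them for Gpx3.

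The superoxide dismutases were transcribed unequally and none passed the threshold. Sod1, the copper and zinc enzyme of the cytosol (chr16:90220754-90226329, plus strand), measured 159, 138 and 66.8 CPM in untreated libraries 1, 2 and 3 and 143, 151 and 106 CPM in the oxLDL libraries of the same numbers. The lowest library of both groups was the one numbered 3, and the groups overlapped. The log2 fold change was 0.21 ± 0.19 (SE, 95% interval -0.28 to 0.70, edgeR adjusted p = 0.493). Pairs 1, 2 and 3 gave log2 ratios of -0.15, 0.13 and 0.66. Without pair 3 the fitted value changed sign to -0.012 ± 0.13 (adjusted p = 0.952). The values of Sod1 are uncertain because the gene overlaps Scaf4 on the opposite strand and whether reads were counted by strand is not given in the sources used here.

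Sod2, the manganese enzyme of mitochondria (chr17:13006846-13040063, plus strand), measured 120, 69.0 and 563 CPM untreated and 59.0, 59.0 and 525 CPM with oxLDL. The libraries numbered 3 were 4.71 and 8.16 times as high as untreated libraries 1 and 2, and 8.91 and 8.90 times as high as oxLDL libraries 1 and 2. Against that spread between numbers, the log2 ratios within pairs were -1.01, -0.22 and -0.10. All 3 were negative, but the fitted change of -0.45 ± 0.22 did not pass (95% interval -1.02 to 0.13, edgeR adjusted p = 0.259), nor did it without pair 3 (-0.63 ± 0.22, adjusted p = 0.101). Its expected counts were not whole in any of the 6 libraries, meaning that RSEM split reads between it and other entries of the annotation. Sod3, the secreted enzyme (chr5:52363791-52371418, plus strand), had 0 counts in all 6 libraries. Counts of 0 allow up to 3 counts, or at most 0.217 CPM, per library, for counting error alone.

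Catalase transcripts were higher with oxLDL in every pair. Cat (chr2:103453849-103485160, minus strand), the haem enzyme that splits hydrogen peroxide into water and oxygen in peroxisomes, measured 449, 464 and 391 CPM untreated and 2133, 2143 and 804 CPM with oxLDL. The untreated libraries lay close together (435 ± 38.3 CPM, SD, n = 3), and the oxLDL libraries did not (1693 ± 770 CPM), the one numbered 3 lying far below the others. The ratios within pairs were 4.75-fold, 4.62-fold and 2.05-fold. The fitted log2 fold change was 1.84 ± 0.32 (SE, 95% interval 1.01 to 2.66, edgeR adjusted p = 0.0471), the 170th largest upward change of the 11400 genes. Without the block the value was 1.96 ± 0.42 and did not pass (adjusted p = 0.141). With the block it was 2.23 ± 0.16 without pair 3 (adjusted p = 0.00126), 1.62 ± 0.42 without pair 1 (adjusted p = 0.257) and 1.64 ± 0.43 without pair 2 (adjusted p = 0.243). The call was thus lost without pair 1 or pair 2, where 0 of all tested genes passed. Without pair 3, 3446 of 11543 genes passed.

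Gpx1, the abundant cytosolic and mitochondrial peroxidase of hydrogen peroxide (chr9:108338903-108340343, plus strand), was lower with oxLDL in every pair. It measured 145, 178 and 118 CPM untreated and 94.4, 87.1 and 44.7 CPM with oxLDL, and every oxLDL library lay below every untreated one. The untreated level was 1.53, 2.05 and 2.64 times the oxLDL level in pairs 1, 2 and 3, so that the ratio was largest in pair 3, where that of Cat was smallest. The log2 fold change was -1.015 ± 0.18 (SE, 95% interval -1.49 to -0.54), with an edgeR adjusted p of 0.0496, just inside the threshold. Without the block the value was -0.96 ± 0.32 and did not pass (adjusted p = 0.262). It was -0.83 ± 0.14 without pair 3 (adjusted p = 0.0120), -1.22 ± 0.20 without pair 1 (adjusted p = 0.186) and -1.007 ± 0.26 without pair 2 (adjusted p = 0.239).

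Gpx3, the secreted peroxidase best known from plasma, where it arrives from the kidney (chr11:54902453-54910377, plus strand), was a rare transcript in these cells. It measured 5.87, 7.92 and 0.888 CPM untreated, from 86, 110 and 13 counts, and 23.8, 15.1 and 0.362 CPM with oxLDL, from 354, 226 and 5 counts. The log2 ratio was positive in pairs 1 and 2 (1.93 and 0.89) and negative in pair 3 (-0.69, on few counts). The fitted value of 1.05 ± 0.55 did not pass (95% interval -0.38 to 2.49, edgeR adjusted p = 0.276). Without pair 3 it was 1.47 ± 0.30 and passed (adjusted p = 0.0262), in a fit that called 3446 of 11543 genes. Without pair 1 it was 0.24 ± 0.62 (adjusted p = 0.889), and without pair 2 it was 1.08 ± 0.87 (adjusted p = 0.658).

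Gpx4, the peroxidase of phospholipid hydroperoxides (chr10:80047166-80056439, plus strand), was higher in the oxLDL library of each pair without passing the threshold. It measured 136, 137 and 219 CPM untreated and 197, 237 and 284 CPM with oxLDL. The groups overlapped because untreated library 3 exceeded oxLDL library 1. The log2 ratios were 0.53, 0.78 and 0.37 and the fitted value was 0.56 ± 0.14 (SE, 95% interval 0.20 to 0.93, edgeR adjusted p = 0.0804). It passed in DESeq2 with the block (0.55 ± 0.19, adjusted p = 0.0238) and in edgeR without pair 3 (0.66 ± 0.12, adjusted p = 0.0159), 2 of 17 alternatives. The former called 1853 of 11400 genes and the latter 3446 of 11543. Gpx4 did not pass without the block (adjusted p = 0.404), without pair 1 (0.57 ± 0.24, adjusted p = 0.384) or without pair 2 (0.45 ± 0.21, adjusted p = 0.428). The 3 selenocysteine enzymes thus did not share a direction: Gpx1 fell, Gpx4 had positive ratios in 3 of 3 pairs and Gpx3 in 2 of 3.

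**Figure D2:**
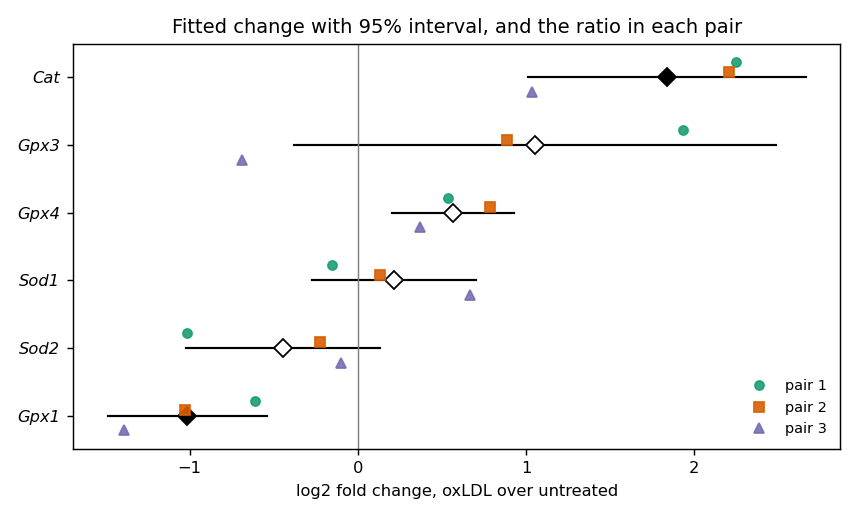
Log2 fold change, oxLDL over untreated (horizontal axis), of each tested gene with its 95% interval from edgeR with the block (diamonds and lines; filled where past the threshold) and the log2 ratio in each pair (coloured points). The ratios of pair 3 lie furthest toward 0 for Cat (1.04) and furthest from 0 for Gpx1 (-1.39).

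The remaining glutathione peroxidases were nearly absent, and 0 of 5 passed the filter. Gpx2, Gpx5 and Gpx8 had 0 counts in all 6 libraries, Gpx6 had 0.73 of a count in untreated library 3 and 0 elsewhere, and Gpx7 had between 0 and 3 counts per library. Gpx1, Gpx3 and Gpx4 were therefore the family members measured above the filter in these cells.

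To set levels of different genes side by side, CPM was divided by the length of the principal GENCODE M21 transcript in kb, from 641 bases for Sod1 to 5861 for Sod2. The transcript models the authors counted on were not given in the sources used here. On this scale the untreated order was Sod1 (189 ± 75.5 CPM per kb, SD, n = 3), Gpx4 (171 ± 49.9), Cat (166 ± 14.7), Gpx1 (137 ± 28.0), Sod2 (42.7 ± 46.4) and Gpx3 (3.07 ± 2.27). The values of neighbours among the leading 4 overlapped, whereas every library of Sod2 lay below every one of Gpx1 and above every one of Gpx3. With oxLDL the order was Cat (648 ± 295 CPM per kb), Gpx4 (249 ± 45.3), Sod1 (208 ± 37.5), Gpx1 (70.3 ± 25.0), Sod2 (36.6 ± 45.9) and Gpx3 (8.21 ± 7.44). Cat came first in each oxLDL library, narrowly so in library 3 (308 CPM per kb against 296 for Gpx4), and in 0 of the untreated ones. The libraries of Gpx4 and Sod1 overlapped, as did those of Gpx1 and Sod2 and those of Sod2 and Gpx3, and every library of Sod1 lay above every one of Gpx1.

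The summed level of the 6 genes was 721, 718 and 689 CPM per kb in untreated libraries 1, 2 and 3 and 1358, 1404 and 900 CPM per kb with oxLDL. Cat made up 23.8%, 24.7% and 21.7% of that sum untreated and 60.1%, 58.4% and 34.2% with oxLDL. The share of Gpx1 went from 18.7%, 23.1% and 16.0% to 6.49%, 5.79% and 4.63%. Catalase thus held the largest share of these transcripts after oxLDL, by the length used here.

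**Figure D3:**
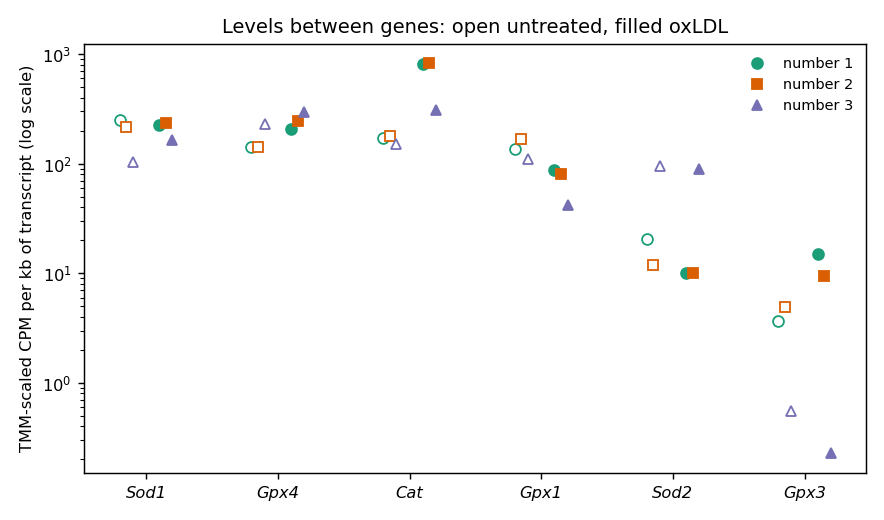
TMM-scaled CPM per kb of principal transcript (vertical axis, log scale) for the 6 detected genes, with open symbols for untreated and filled symbols for oxLDL libraries and shape for the WT number. Cat is the highest gene in all 3 oxLDL libraries, and the libraries numbered 3 lie apart for Sod2 and Gpx3.

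Each member had its own closest genes, named by Pearson's r of log2 CPM over the 6 libraries among tested genes with a mean of at least 10 CPM. With 6 libraries that share treatment and number, these values are descriptions. Cat was closest to Pfkfb2, which encodes a regulatory enzyme of glycolysis (r = 0.9995). Next came Tubgcp4 of the gamma-tubulin ring (0.998) and Clec4n, the fungal receptor Dectin-2 (0.994). Clec4n rose, and the log2 fold changes of Pfkfb2 (0.39 ± 0.11) and Tubgcp4 (0.72 ± 0.14) did not pass. Gpx1 was closest to the inositol kinase gene Itpkb, to BC004004 and to Cd180, a receptor related to the Toll-like receptors (r = 0.996 for each). Itpkb (-0.85 ± 0.14) and Cd180 (-1.27 ± 0.21) fell too, and BC004004 (-0.27 ± 0.11) did not pass.

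For Gpx4 the closest genes were Mtm1, a phosphoinositide phosphatase, Cpox of haem synthesis and the thioredoxin gene Txn1 (r = 0.997, 0.996 and 0.996). Like Gpx4 they had positive values that did not pass, among them 0.76 ± 0.16 for Txn1. For Sod1 they were Uqcrh of the respiratory chain and the ribosomal protein genes Rpl23a and Rpl13 (r = 0.997, 0.994 and 0.994). Gpx3 was closest to Atp9b, Galnt7 and Ranbp10 (r = 0.999, 0.996 and 0.995) and Sod2 to Cdc37l1, Cep290 and Usp39 (r = 0.998, 0.997 and 0.996). The log2 fold changes of these last 6 genes lay between -0.12 and 0.10, and both libraries numbered 3 lay below the other 4 for the genes close to Gpx3 and above them for those close to Sod2. Among the members themselves, Gpx3 and Sod2 ran opposite to each other over the 6 libraries (r = -0.97), as did Gpx1 and Gpx4 (r = -0.90).

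Genes around these enzymes were described from 10 lists of 140 genes, of which 121 passed the filter. Of the 121, 5 rose (4.13%) and 3 fell (2.48%), beside 1.91% and 3.98% of all tested genes. Their median log2 fold change was 0.10. The groups did not overlap for 28 of the 121, and for 21.1% of all tested genes. Without pair 3, 29 of 120 were called higher and 19 lower, beside 3446 of 11543 genes called in either direction, and without pair 1 or pair 2 the count was 0.

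Sources of superoxide and peroxide had 12 tested genes, of which 1 fell, 0 rose, and 8 had negative values (median -0.38). The medians of the list were -0.59, -0.51 and 0.07 in pairs 1, 2 and 3. The one that fell was Nox1, the catalytic subunit of an NADPH oxidase, at 43.7, 33.0 and 1.58 CPM untreated and 0.588, 0.288 and 0.251 CPM with oxLDL (-6.01 ± 0.60, edgeR adjusted p = 0.0286). Its untreated level was low in library 3, the oxLDL values were near the limit of 3 counts, and its counts were not whole in all 6 libraries. Among 6 tested genes of copper supply, which Sod1 and Sod3 depend on, 0 rose and 0 fell (median -0.02). The 2 most abundant were the copper importer Slc31a1 (-0.14 ± 0.17) and its relative Slc31a2, with 241 ± 109 CPM untreated and 111 ± 96.5 CPM after oxLDL, just outside the threshold (-1.36 ± 0.24, edgeR adjusted p = 0.0503).

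Supply and reduction of glutathione, which the peroxidases consume, had 13 tested genes with 12 positive values (median 0.34). In this list 1 gene rose, the cystine transporter Slc7a11 (4.07 ± 0.56, from counts not whole in all 6 libraries), and 1 fell, the glutaredoxin Glrx. Glrx uses glutathione to reduce mixed disulphides of proteins, and it measured 240, 162 and 215 CPM untreated and 42.5, 35.2 and 37.3 CPM with oxLDL. Its libraries were tight in both groups (-2.41 ± 0.13, edgeR adjusted p = 0.0267), and its adjusted p without the block was 0.0667. The medians of the list in pairs 1, 2 and 3 were 0.81, 0.99 and 0.19.

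Selenoprotein synthesis had 11 tested genes, of which 1 rose and 0 fell (median 0.26). This was Lrp8, a receptor that takes up selenoprotein P in brain and testis of mice, at 4.51, 2.28 and 44.9 CPM untreated and 26.6, 39.4 and 166 CPM with oxLDL (2.73 ± 0.45, edgeR adjusted p = 0.0454). The groups overlapped through untreated library 3, and its counts were not whole in all 6 libraries. Of 16 tested genes for other selenoproteins 0 rose and 0 fell (median 0.13). By the mean over all 6 libraries, the most abundant was the gene of selenoprotein P, listed as Sepp1, a carrier of selenium in plasma, at 3952, 3742 and 200 CPM untreated and 2587, 566 and 85.3 CPM with oxLDL (-1.51 ± 0.47, edgeR adjusted p = 0.122). The next by that mean was the thioredoxin reductase Txnrd1, at 174 ± 128 CPM untreated and 429 ± 43.4 CPM with oxLDL (1.54 ± 0.42, edgeR adjusted p = 0.0972).

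Other removers of peroxide, the peroxiredoxins and thioredoxins, had 11 tested genes, of which 1 rose and 0 fell (median 0.18). The one that rose was Prdx6, which like Gpx4 reduces phospholipid hydroperoxides, at 56.1, 59.3 and 261 CPM untreated and 258, 227 and 755 CPM with oxLDL (1.89 ± 0.18, edgeR adjusted p = 0.0286). The groups overlapped through untreated library 3. Among 14 tested genes of lipid peroxidation and ferroptosis, Pebp1, a partner of lipoxygenases, rose from 61.8 ± 1.31 to 113 ± 16.2 CPM (0.86 ± 0.12), 0 fell, and the median was 0.0048. In the peroxisome, where catalase works, 23 genes were tested, of which 1 rose and 1 fell (median 0.07). Among them Acox3, an oxidase of branched fatty acids that makes hydrogen peroxide, rose from 96.5 ± 13.3 to 185 ± 15.7 CPM (0.94 ± 0.12, edgeR adjusted p = 0.0316).

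Of 15 tested regulators of these genes 0 rose and 0 fell (median -0.06). Nfe2l2, which encodes NRF2, the activator at antioxidant response elements, measured 377, 371 and 239 CPM untreated and 531, 427 and 264 CPM with oxLDL. It was higher in the oxLDL library of each pair, and the value of 0.28 ± 0.15 did not pass (edgeR adjusted p = 0.281). Bach1, a repressor at the same elements, measured 319, 354 and 171 CPM untreated and 251, 206 and 108 CPM with oxLDL, and its change of -0.60 ± 0.15 missed the threshold (edgeR adjusted p = 0.0790).

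**Figure D4:**
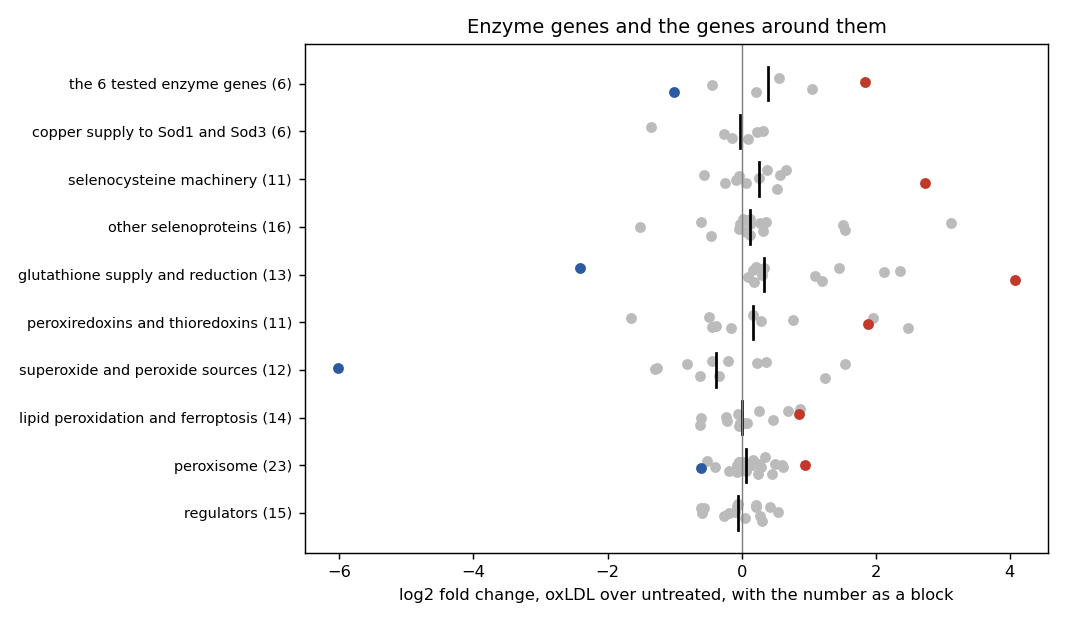
Log2 fold change, oxLDL over untreated (horizontal axis), of each tested gene of the enzyme set and of the lists around it, with the number tested in brackets, red for genes that rose, blue for genes that fell, grey for the others and a black bar for the median. List medians lie between -0.38 and 0.39.

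The labelled cell type was checked against markers. All 10 macrophage markers were tested, 0 rose and 2 fell (Fcgr1 and Spi1). Cd68 alone had a positive log2 fold change, which did not pass (0.62 ± 0.25, edgeR adjusted p = 0.187). The summed level of the 10 was 36019, 27476 and 13161 CPM in untreated libraries 1, 2 and 3 and 16261, 9286 and 11321 CPM in the oxLDL libraries. Lyz2 was the largest part of that sum in each library. Summed levels of 10 lists for other cell types were at most 71.1 CPM in any library. The erythroid markers Hbb-b1 and Hbb-bs, the stromal marker Pdgfra and the endothelial marker Tek were at 0 in all libraries. Other markers of these lists were not: Kdr of the endothelial list measured 22.2, 34.8 and 71.0 CPM untreated and 32.4, 27.8 and 20.1 CPM with oxLDL. Pdgfrb of the stromal list measured between 0.134 and 1.71 CPM. B cell markers summed to between 1.74 and 38.0 CPM with Pax5 at 0, and Cd79b fell. Osteoclast markers summed to between 6.28 and 22.0 CPM, and Acp5 fell. Ctsk, Kit and Ccr7 alone among the tested markers of other cell types had positive log2 fold changes, and none of these passed. They were 0.93 ± 0.42 for Ctsk, also an osteoclast marker, 1.79 ± 0.48 for Kit and 1.05 ± 0.32 for Ccr7 (edgeR adjusted p = 0.224, 0.0925 and 0.116). The part of these differences in the changes of Cat and Gpx1 was not tested.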

How the data were processed

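RNA was extracted with Trizol, selected for poly(A) and made into stranded libraries that were read as 150-base pairs, per the labels' protocols. The authors deposited expected counts from RSEM for 24054 genes and a normalised signal, CPM of a TMM-scaled library size. The submitters' processing notes list Bowtie2 2.1.0, RSEM 1.2.15, edgeR and hg19. That build is human and the samples were not, so coordinates here are those of the mouse annotation alone. Of the expected counts above 0, 17.8% to 19.0% were not whole, and all were rounded. In the deposited CPM at least 99.9% of values were whole reads (tolerance 0.005). Those reads equalled the rounded counts for at least 99.9% of genes, so edgeR on them, calling 672 genes, was nearly the main fit again.

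Genes passing filterByExpr (minimum count 10, minimum total 15) were fitted with edgeR 4.0.16 in R 4.3.3 (glmQLFit, robust, TMM factors 0.942 to 1.06), with treatment and WT number as terms. Each SE is the size of the log2 fold change over the square root of F. Log2 pair ratios used CPM plus 0.5, while pair folds are plain CPM ratios, and closest genes used log2 CPM with a prior count of 2. Libraries of the same number deviated together from their group means (r = 0.664, 0.447 and 0.698 across genes), but untreated 2 and oxLDL 1 did too (0.625). The block was led with because the genes were to be compared by matched number, with both call counts, 0 without and 672 with it, already known. The members and lists, too, were chosen with earlier results of these data known. Text names all members, genes of a list past the threshold (its 2 most abundant tested genes over all 6 libraries where none was) and 3 closest genes per member. Alternatives used DESeq2 1.42.0 and limma 3.58.1. Promoters are RefSeq's, GRCm38.p6, and coding sequence and lengths GENCODE M21's. Protein sequences were not used here, and 1 list gene past the threshold is not reported here.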

Additional observations from a re-analysis of the deposited data

How the results depend on the processing

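Counts of genes past the threshold moved with the block, with the pair left out and with the test used. Without the replicate block 0 genes, 0 of the 6 enzyme genes and 0 genes of the surrounding lists passed, against 672, 2 and 8 with it. Leaving out libraries, with or without the block, gave 0 to 3446 genes, 0 to 4 enzyme genes and 0 to 48 list genes. With the block, DESeq2 called 1853 genes, 3 enzyme genes and 32 list genes. The list count was 13 in limma-voom and also 13 in limma on the deposited CPM. Over 17 alternatives the log2 fold change of Cat stayed between 1.62 and 2.29 and passed in 9, and that of Gpx1 stayed between -1.22 and -0.70 and passed in 8. In edgeR with the block, other scaling and other filters left both calls in place. So did reads recovered from the deposited CPM, an alternative chosen after seeing the data. Those reads equalled the rounded counts for at least 99.9% of genes, so that alternative nearly repeats the main fit and could hardly differ from it. With 1 library left out and no block, Cat passed only without oxLDL library 3 (adjusted p = 0.0466) and Gpx1 in 0 of 6 cases. Gpx3 and Gpx4 kept a positive value in all 17. Values changed sign for Sod1 (-0.15 to 0.39 with libraries left out) and Sod2 (-2.10 to 1.19), and neither passed in any alternative. The causes were not tested. At these totals the 0 counts of Sod3 limit it to 3 counts per library.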
